A study of Mus musculus with 2 samples.

Results

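Of the 21558 protein-coding genes in the gene tables of both libraries, 78 carry a mouse symbol that begins with Mrpl or Mrps followed by a digit, the names given to proteins of the mitochondrial ribosome. Symbols starting with Mrpl, 49 genes, stand for the large subunit, and those starting with Mrps, 29 genes, for the small subunit. All 78 were kept, whatever their level. The samples were 2 libraries from whole hearts of B6NCrl mice at postnatal day 0, replicate 1 from pup 1 and replicate 2 from pup 3, with no treatment and no altered gene given in the labels. Each library was made from 13 pg of total RNA longer than 200 nt, the content of 1 cell by the labels, so the values describe a small draw of RNA from many cell types and not a single cell. The pups share a donor identifier and their sex was not collected. There is 1 group, so no test between groups exists, and each difference below is between 2 hearts, RNA draws and amplifications at once. The SD (n = 2) measures only that spread.

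Mitochondria translate the few proteins of their own genome, all of them subunits of the oxidative phosphorylation complexes, on ribosomes that are built from mitochondrial ribosomal RNA and from proteins made in the cytosol from nuclear genes. Some of these proteins have counterparts in bacterial ribosomes, and others are found only in mitochondria. Heart muscle around birth depends increasingly on oxidative phosphorylation, which makes the nuclear genes of this ribosome a part of the heart's energy supply.

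Sequences in and beside 3 member genes bear on how the values below can be read. Mrpl23 encodes a large-subunit protein with a bacterial counterpart. Its first 120 coding bases, chr7:142533178-142535107 on the plus strand of GRCm38, are shown with the bases of the second exon in capitals, because the processed pseudogene Mrpl23-ps1 on chromosome 2 holds the same run without the intron.
Mrpl23: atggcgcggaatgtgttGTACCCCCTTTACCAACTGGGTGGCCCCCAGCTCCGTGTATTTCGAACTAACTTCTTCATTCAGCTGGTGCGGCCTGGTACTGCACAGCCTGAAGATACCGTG
Mrps10 encodes a small-subunit protein with a bacterial counterpart. The junction of its second exon with the next (chr17, plus strand, GRCm38, from 47372477 to 47372590 with the intron left out) is shown in both leading transcript models, with the 3 bases that only Mrps10-203 includes in capitals.
Mrps10-203: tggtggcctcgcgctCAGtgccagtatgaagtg
Mrps10-204: tggtggcctcgcgcttgccagtatgaagtg
Mrpl43, a large-subunit protein without a bacterial counterpart, is transcribed from the minus strand of chromosome 19 away from Twnk, the helicase of mitochondrial DNA replication. The 115 bases between the annotated first base of Mrpl43 and that of the main Twnk model lie at chr19:45006443-45006557, plus strand. The bounds follow GENCODE M21, and the bases come from RefSeq promoter sequence (GRCm38.p6). This stretch holds the letters CCGGAAG, the core bound by ETS factors, at 2 places on the minus strand, in capitals here.
Mrpl43-Twnk: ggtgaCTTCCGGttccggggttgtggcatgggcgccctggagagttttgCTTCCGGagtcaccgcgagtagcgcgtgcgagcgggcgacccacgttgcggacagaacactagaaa

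The table of replicate 1 summed to 40648662 expected counts, 39671930 of them on mouse genes, and that of replicate 2 to 33173354, with 32751851 on mouse genes. All 8 heart muscle markers, among them Actc1 and Tnnt2, were read in both libraries and none of the 6 lung and liver markers was. Levels are in TPM, transcripts per 1000000 over mouse genes, which divides by transcript length. The reads carry no molecular identifiers, so counting intervals and floors cover counting error only. In whole tissue, fewer cells of a type and less RNA per cell cannot be told apart.

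Nearly the whole family was read in both hearts. At 1 TPM or more, 75 of the 78 members were read in both libraries, against 28.3% of all protein-coding genes, and 2 in exactly 1 library, against 16.1%. The large subunit had 47 of 49 members read in both and the small subunit 28 of 29. Detection was as full among cytosolic ribosomal protein genes and nuclear oxidative phosphorylation subunit genes, with 81 of 84 read in both in each set. The median member stood at 77.6 TPM in replicate 1, with the middle 50% of members between 39.6 and 166 TPM. In replicate 2 the median was 122 TPM and the middle 50% lay between 51.0 and 187 TPM. In both libraries, 26 members (33.3%) reached 100 TPM or more, against 4.29% of protein-coding genes. Together the members held 242053 expected counts in replicate 1 and 230274 in replicate 2. They made up 0.931% of TPM in replicate 1 and 1.06% in replicate 2, a mean of 0.998% ± 0.0940 (SD, n = 2). The summed level was therefore 1.14 times as high in replicate 2.

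**Figure D1:**
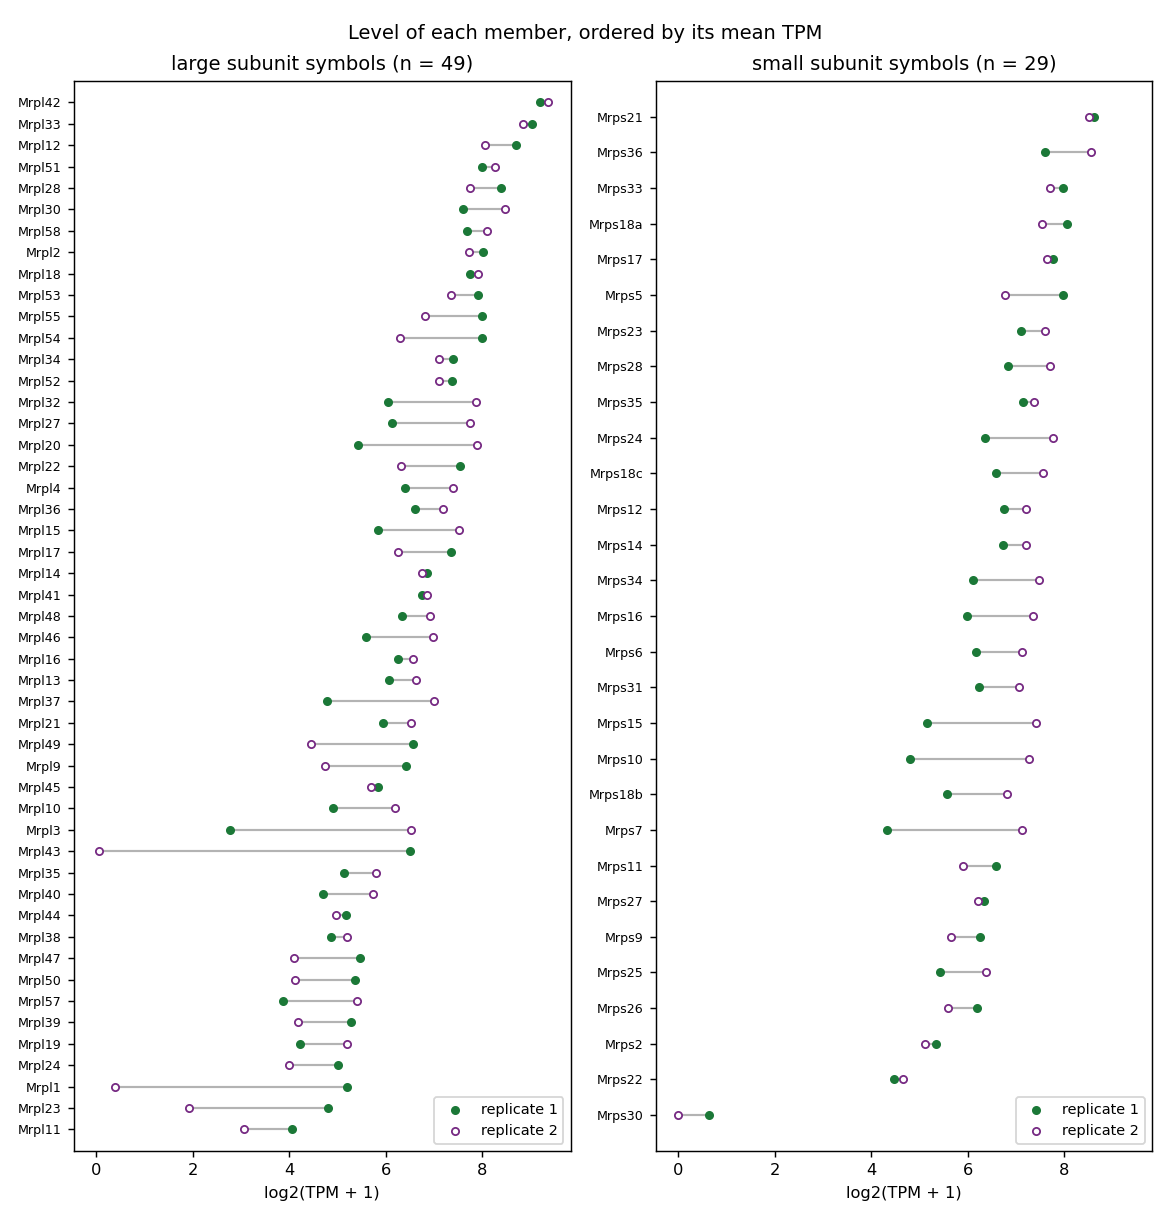
Level of each of the 78 members on the log2(TPM + 1) scale, with large-subunit symbols on the left and small-subunit symbols on the right, each ordered by mean TPM. Filled points are replicate 1, open points replicate 2, and the grey line joins them. Mrpl42 has the highest mean of the large subunit and Mrps21 of the small. Long lines mark Mrpl43, Mrpl1, Mrpl3 and Mrpl23, whose values differ widely between libraries, those of Mrpl23 being uncertain.

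A few small proteins led the family. Mrpl42, a large-subunit protein found only in mitochondria, was at 588 TPM in replicate 1 and at 658 TPM in replicate 2, and ranked first in both. Mrpl33, a short large-subunit protein with a bacterial counterpart, was at 523 and 461 TPM. Mrps21 had the highest mean of the small-subunit symbols and was at 391 and 365 TPM, below Mrps36 in replicate 2. These 3 kept close levels in both hearts.

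Mrpl12 forms the flexible stalk that recruits translation factors to the ribosome and also binds the mitochondrial RNA polymerase. It read 414 TPM in the first heart and 264 TPM in the second, a mean of 339 ± 107 (SD, n = 2). The other stalk proteins were far lower. Mrpl10, the base of that stalk, read 29.1 and 71.8 TPM, and Mrpl11, its neighbour at the base, read 15.7 and 7.37 TPM. Mrpl1, the protein of the other stalk, at the side where used tRNA leaves, read 35.5 and 0.307 TPM. Thus within the 4 stalk genes Mrpl12 was highest in each library and the order of the rest differed between libraries.

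The remaining members with the highest means were spread over both subunits. Mrpl51 was at 253 and 308 TPM, Mrpl28 at 332 and 214 TPM, Mrpl30 at 194 and 351 TPM, and Mrpl2, a protein at the ribosome's catalytic core, at 259 and 210 TPM. Mrpl58, a peptidyl-tRNA hydrolase that became a fixed part of the large subunit, was at 205.5 and 272 TPM. In the small subunit, Mrps33 was at 251 and 207 TPM, Mrps17 at 217 and 199 TPM, Mrps5 at 253 and 108 TPM, Mrps23 at 136 and 193 TPM, and Mrps28 at 113 and 208 TPM. Mrps12, at the decoding centre, was at 108 and 147 TPM. The order was only partly shared. Of the 10 highest members in each library, 5 were the same (Mrpl12, Mrpl33, Mrpl42, Mrpl51 and Mrps21), and of the 20 highest, 13. The 10 members with the highest means held 35.99% of the family's TPM in replicate 1 and 32.69% in replicate 2.

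Mrps36 carries a small-subunit symbol, but its protein is now known as a component of the oxoglutarate dehydrogenase complex of the citric acid cycle. It was at 193 and 376 TPM, the fifth highest mean of the 78. Mrps18a and Mrps30 also carry small-subunit symbols, and structures place both proteins in the large subunit. Mrps18a was at 267 and 186 TPM. Its relative Mrps18b, a mitochondria-specific protein of the small subunit, was at 46.9 and 111 TPM, and Mrps18c, the relative in the place of the bacterial protein, was at 95.1 and 187 TPM. Mrps18a was thus the highest of the 3 in replicate 1, whereas in replicate 2 Mrps18a and Mrps18c had nearly equal levels.

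The lowest member was Mrps30, with 27 expected counts (0.563 TPM) in replicate 1 and 0 in replicate 2, where up to 3 counts would be allowed by counting error. It was the only member under 1 TPM in both libraries and the only member with a mean under 10 TPM. Mrps22 was at 21.3 and 24.3 TPM, Mrps2 at 39.4 and 33.9 TPM, and Mrps26 at 72.1 and 47.2 TPM. In the large subunit, Mrpl11, Mrpl23, Mrpl1 and Mrpl24 had the lowest means, and Mrpl24, a protein near the exit tunnel, was at 31.3 and 14.9 TPM. Of these, Mrpl1, Mrpl11 and Mrpl24 were lower in replicate 2. Mrpl23 was lower by TPM too, but its reads are shared with an identical pseudogene and its level is uncertain.

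The subunits had alike medians in replicate 1 but not in replicate 2. The large-subunit median was 75.2 TPM in replicate 1 against 98.3 TPM in replicate 2, and the small-subunit median was 79.7 and 148 TPM. On the log2(TPM + 1) scale the large-subunit median was lower than the small-subunit median by an amount that the libraries did not share, with a difference of -0.08 in replicate 1 and -0.59 in replicate 2, a mean of -0.34 ± 0.36 (SD, n = 2). The mean difference was smaller than its SD. Because the large subunit has more members, it held the larger part of the family's TPM, 65.9% in replicate 1 and 60.0% in replicate 2. Its sum was 6135 TPM in replicate 1 against 6384 TPM in replicate 2, a ratio of 1.04. The small-subunit sum was 3177 and 4259 TPM, a ratio of 1.34.

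Grouping by structure and by bacterial kinship gave a like picture. The 51 members that structures place in the large subunit had medians of 75.2 and 98.3 TPM, and the 26 in the small subunit 77.6 and 148 TPM. Large-subunit proteins with a bacterial counterpart (29) had medians of 75.2 and 107 TPM, and those found only in mitochondria (22) of 68.2 and 64.9 TPM. Small-subunit proteins with a bacterial counterpart (16) had medians of 88.4 and 151 TPM, and mitochondria-specific ones (10) of 73.0 and 122 TPM. By TPM, which divides by transcript length, the mitochondria-specific median was the lower in both subunits and in both libraries. By expected counts, without that division, the small-subunit order was the reverse in both libraries. In the large subunit the mitochondria-specific median stayed lower by expected counts, but only slightly in the first heart. The order by kinship thus depends on the length correction.

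Level went with transcript length. Across the 78 members, Spearman's rho between transcript length and mean TPM was -0.67, and between length and mean counts scaled to 1000000 it was -0.14. These are descriptions across genes that share their libraries and length corrections. The 25 members under 800 nt had medians of 164 and 207 TPM from medians of 2942 and 3515 counts. The 22 members of 1300 nt or more had medians of 36.6 and 38.4 TPM from 2566 and 1829 counts. Long and short members therefore differed far more per transcript than in the number of reads. The order by TPM thus carries the length correction, in which the deposited effective length was the length less 99 nt for 99.99% of genes.

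**Figure D2:**
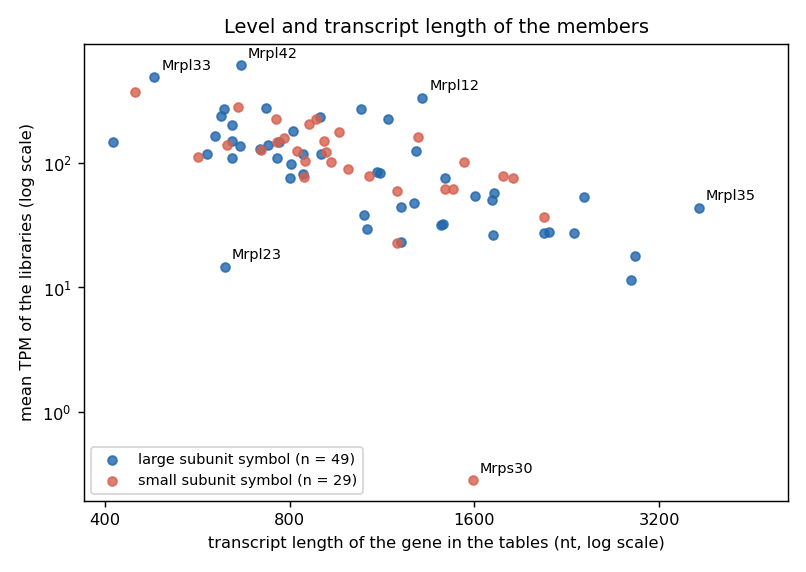
Mean TPM of the libraries (log scale) against the transcript length of each gene in nt (log scale), with large-subunit symbols in blue and small-subunit symbols in red. Levels are lower at greater length, Mrpl12 lies above other members of its length, and Mrpl23 and Mrps30 lie far below.

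The libraries differed gene by gene more than the family's sums did. The ratio of replicate 2 to replicate 1 was taken on the log2(TPM + 1) scale for the 77 members whose mean was at least 5 TPM, which leaves out Mrps30. In all, 43 were higher in replicate 2, or 55.8%, and 34 lower, while 50.3% of all protein-coding genes that passed this filter were higher, and the median ratio was 0.23 against 0.01 over those genes. A difference over 2-fold was found for 31 of the 77, against 54.5% of those protein-coding genes. Of these, 17 were higher in replicate 2 (27.8% of protein-coding genes were) and 14 lower (26.8%). The 14 include Mrpl23, whose ratio is uncertain in size and direction. The SD per library, the SD of the ratios divided by the square root of 2, was 1.07. Pearson's correlation of log2(TPM + 1) between libraries over the 78 members was 0.61 and Spearman's rho 0.62.

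**Figure D3:**
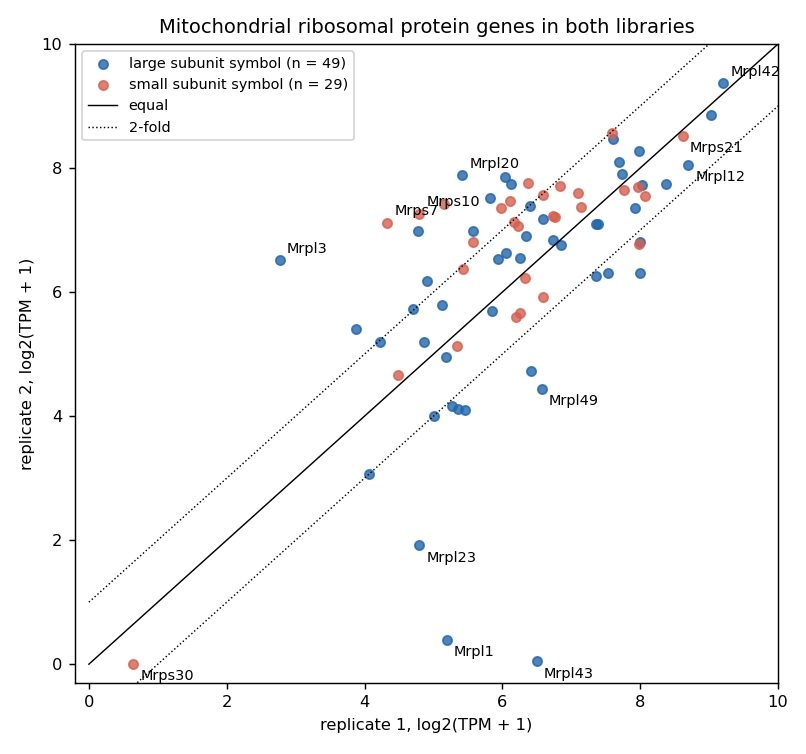
Level of the 78 members in replicate 1 against replicate 2, both as log2(TPM + 1), with large-subunit symbols in blue and small-subunit symbols in red. The solid line marks equal levels and the dotted lines a 2-fold difference. Mrpl43, Mrpl1 and Mrpl23 lie far below the lines, and Mrpl3, Mrps7 and Mrpl20 above them.

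Of the 31 members over 2-fold apart, 23 were in the large subunit, which has 49 of the 77 members. Within 2-fold were 53.1% of large-subunit and 71.4% of small-subunit members, against 45.5% of protein-coding genes that passed the same filter. Of 49 large-subunit members, 10 were over 2-fold higher in replicate 2 and 13 over 2-fold lower, with a median ratio of 0.10 and an SD per library of 1.21. Of 28 small-subunit members, 7 were over 2-fold higher and 1, Mrps5, over 2-fold lower, with a median ratio of 0.49 and an SD per library of 0.70. By expected counts scaled to 1000000, the log2 ratio of Mrps5 was only -0.39, since its deposited length differed between libraries. The length differed by over 20% for 10 members, Mrpl1, Mrpl23 and Mrps7 among them, and the ratios by TPM and by scaled counts differed in sign for 2, Mrpl19 (0.97 and -0.11) and Mrpl48 (0.57 and -0.15). The large subunit thus spread in both directions, and the small subunit leaned towards replicate 2. No test bears on this difference, since the genes share 2 libraries.

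The libraries were closer at higher levels, and at matched level the family was not closer than other genes below 300 TPM. Between 30 and 100 TPM, 56.0% of 25 members were within 2-fold, against 57.1% of 2008 other protein-coding genes. Between 100 and 300 TPM, 65.8% of 38 members were, against 76.8% of 703 others. Between 10 and 30 TPM it was 3 of 10 members against 38.9% of 2852 others. All 4 members above 300 TPM were within 2-fold, as were 87.0% of 285 others. In this respect the share over 2-fold in the family, below that of all protein-coding genes, went with its higher levels.

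**Figure D4:**
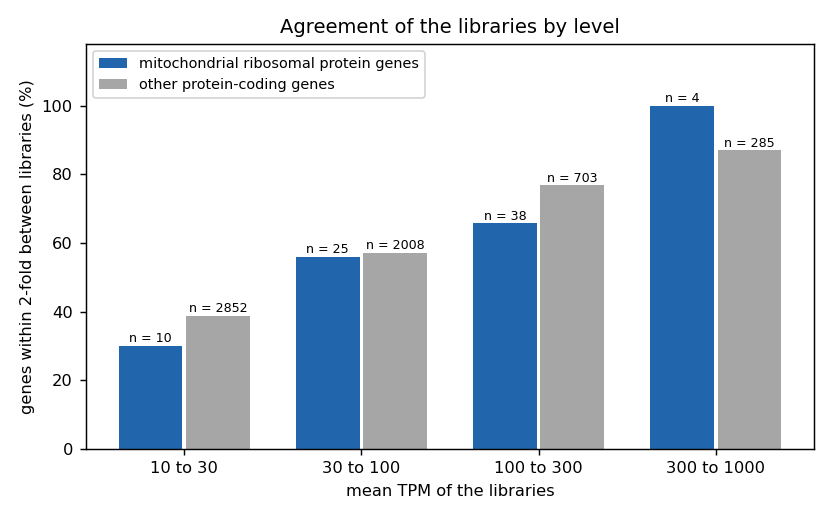
Share of genes whose TPM + 1 differed by no more than 2-fold between the libraries, in percent, by range of mean TPM. Blue bars are the mitochondrial ribosomal protein genes and grey bars all other protein-coding genes, with the number of genes above each. The blue bar is below the grey one in the 3 lower ranges and above it in the highest, which holds 4 members.

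Members lower in replicate 2 included the widest differences. Mrpl43 had 3216 expected counts (89.4 TPM) in replicate 1 and 1 count (0.0307 TPM) in replicate 2. Its share of counts was 2655 times as high in replicate 1, with an exact 95% counting interval from 476 to 104900. Mrpl1 had 3726 and 20 counts, a ratio of 154 with an interval from 99.4 to 252. Mrpl49, a mitochondria-specific protein, was at 93.9 and 20.8 TPM, Mrpl54 at 255 and 77.8 TPM, and Mrpl9 at 84.1 and 25.6 TPM. Mrpl43 was the only member of 36 that lay between 30 and 100 TPM in replicate 1 and under 3 counts in replicate 2, or 2.78%, and the same held for 7.93% of all protein-coding genes in that range. In the other direction, none of the 21 members at 30 to 100 TPM in replicate 2 was under 3 counts in replicate 1, against 7.54% of protein-coding genes.

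Other members were low in replicate 1 and high in replicate 2. Mrpl3, which reaches towards the catalytic core of the large subunit, had 234 counts (5.82 TPM) in replicate 1 and 2765 counts (90.6 TPM) in replicate 2. Its share of counts was 14.3 times as high in replicate 2, with a counting interval from 12.5 to 16.4. Mrps7 was at 19.1 and 138 TPM, Mrpl20 at 41.7 and 236 TPM, and Mrps10 at 26.8 and 153 TPM. Mrps15 was at 34.7 and 170 TPM and Mrpl37 at 26.5 and 126 TPM. All of these except Mrpl37 have bacterial counterparts, and 3 of the 6 are in each subunit.

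At the other extreme, 6 members had nearly equal levels. Mrps21 gave a log2 ratio of -0.10, Mrpl14 (115 and 107 TPM) of -0.10, Mrpl41 (106 and 114 TPM) of 0.10 and Mrps27 (79.7 and 73.6 TPM) of -0.11. Mrps17 gave -0.12, and Mrpl45 (56.5 and 50.6 TPM), which tethers the ribosome to the inner membrane, gave -0.16. The authors' intervals of TPM, each given for a single library, overlapped for only 4 members, Mrpl14, Mrpl23, Mrpl41 and Mrps22. They did not overlap for 73 of the 77 members in the ratio comparison, against 92.0% of protein-coding genes. Those intervals were thus narrower than the spread between libraries for the family as for other genes.

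The intervals of Mrpl23 overlapped although its levels were far apart. It was at 26.7 TPM (399 counts) in replicate 1 and 2.77 TPM (45.1 counts) in replicate 2, but the authors' interval ran from 5.11 to 37.99 TPM in the former and from 2.16 to 24.7 TPM in the latter. The pseudogene Mrpl23-ps1 (chr2:74591330-74591909, minus strand), whose sequence is identical to the coding model of Mrpl23 over 540 bases, was given 1603 counts (103 TPM) and 3154 counts (239 TPM). The run contains the whole coding region of 438 bases, of which the first 120 are printed above, so a read from the coding exons has the same letters in both. Of the counts given to the pair, 2002 in replicate 1 and 3199 in replicate 2, Mrpl23 received 19.9% and 1.41%. The leading model of Mrpl23 also differed, a model without a coding sequence with 81.1% of the gene's TPM in replicate 1 and the coding model with 97.4% in replicate 2. With the authors' posterior mean TPM its log2 ratio was -0.95, in place of -2.88 by TPM. Its value in either library is therefore uncertain, and so are the size and the direction of its difference.

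Other copies took few counts. In all, 21 members had at least 1 pseudogene copy in the tables at 90% identity or more over at least 50% of its length, 35 copies together, and 4 of these copies reached 1 TPM in each library. The copy of Mrps33, Gm5776, had 142 and 173 counts beside 5166 and 3866 for Mrps33. The copy Mrps36-ps1 had 17.7 and 34.5 counts beside 3437 and 5829 for Mrps36. Windows of 100 nt with the same letters as another gene were found in 37 members and made up over 20% of the windows in 9 of them. The largest shares with a single gene were 75.6% in Mrpl53, with Gm42688 on the same strand, and 66.4% in Mrps25, with Nr2c2 on the opposite strand. Mrpl19 shares 34.9% of its windows with Gcfc2 on the opposite strand. Mrps34 shares 43.3% with Mapk8ip3 on the opposite strand and 31.2% with Nme3 on the same strand. Without a stated strand rule for the counting, whether reads from the opposite-strand windows were kept apart is not known here.

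Leading transcript models were mostly the same in both hearts. The tables list 286 models of the 78 members, and 19 members have a single model. Of the 59 others, 50 had the same leading model by share of TPM in both libraries and 9 had different ones. In Mrps10 the model Mrps10-204 held 97.7% of the gene's TPM in replicate 1 and 0% in replicate 2, whereas Mrps10-203 held 1.39% and 84.0%. These models use acceptor sites 3 bases apart (CAG in the sequence above) and differ by a few bases at both ends. In Mrpl40, the longer model of 1185 nt held 94.3% and 42.5% and the shorter of 778 nt held 5.67% and 57.6%. In Mrps21 and Mrps33 the leading models were close in share in both libraries.

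For 11 of the 50 the shared leading model is of another annotated type than protein-coding, 4 as targets of nonsense-mediated decay, 4 as retained introns and 3 as processed transcripts without a coding sequence. For 7 of these 11 (Mrpl3, Mrpl13, Mrpl15, Mrps11, Mrps14, Mrps24 and Mrps26) that model also led by counts. A model with a retained intron held 95.7% and 95.8% of the TPM of Mrps26. It has 1057 nt and the coding model has 4278 nt with a longer last exon, so the choice between them rests on the gene's end as well as on the intron. In Mrps24, a model with a retained intron held 77.7% and 77.0%, and in Mrps14 a decay model held 94.5% and 92.7%. These shares are estimates from reads shorter than the transcripts, and both libraries gave them alike for these 3 genes.

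Many members share their promoter region with a gene on the other strand. A protein-coding gene on the opposite strand begins within 1000 nt of the start of 33 of the 78 members (42.3%), against 10.9% of all 21558 protein-coding genes. Starts are taken here at the outermost bound of each gene over all its models. For 21 of the 33 members the starts are under 200 nt apart, and in 15 the genes overlap head to head. Mrpl43 is among the 15 only through a Twnk model other than the main one. In several pairs the neighbour was nearly missing from 1 library and the member was not. Klc4, beside Mrpl2, had 1631 and 0 counts, while Mrpl2 had 6981 and 4377. Helq, beside Mrps18c, had 2453 and 4 counts, while Mrps18c had 1649 and 2713. Eme2, beside Mrps34, had 2322 and 1.9 counts, while Mrps34 had 1806 and 3954. For 6 of the 33 members (18.2%) the neighbour had under 3 counts in exactly 1 library, namely Eme1, Mtbp, Klc4, Eme2, Twnk and Cyb5rl, and the same held for 20.9% of the 2341 protein-coding genes with such a neighbour.

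Mrpl43 and Twnk were mirror images. Mrpl43 had 3216 counts in replicate 1 and 1 in replicate 2, whereas Twnk had 0 and 1412, at least 570-fold higher in replicate 2 by the floor of 3 counts per library. The main models start on either side of the 115 bases printed above. Another Twnk model begins inside Mrpl43, and 14.6% of the windows of Mrpl43 have the same letters as Twnk, so part of the reads could be given to either gene and their strand is not known here. Mrpl46 and Mrps11, which overlap head to head by 412 nt on chromosome 7, also differed in opposite directions, with Mrpl46 at 46.8 and 125 TPM and Mrps11 at 95.5 and 59.3 TPM. Counting each pair once (Mrpl46 and Mrps11 are neighbours of each other), 23 pairs had a mean of at least 5 TPM in both genes, and the ratio had opposite signs in 9 of them (39.1%), against 45.0% of 431 such pairs among all protein-coding genes.

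Promoters in RefSeq (GRCm38.p6, 250 bases before to 50 after the start) were found for 69 members and for 16377 protein-coding genes in all. Each motif was searched as fixed letters on both strands. The ETS core CCGGAAG was in 34.8% of the member promoters and in 12.4% of all promoters. The letters GCGCA, any base, then GCGC, bound by the mitochondrial biogenesis factor NRF1, were in 18.8% and 6.9%, and AAGATGG, bound by YY1, in 18.8% and 6.4%. GGGCGG, bound by SP1, was in 49.3% and 48.4%, and TATAAA in 5.8% and 12.7%. By subunit, the NRF1 letters were in 10 of 43 large-subunit promoters and 3 of 26 small-subunit promoters, and CCGGAAG in 14 and 10. GGGCGG was in 17 of the large-subunit (39.5%) and 17 of the small-subunit promoters (65.4%), AAGATGG in 7 and 6, and TATAAA in 2 and 2. A match is a run of letters and not a measured binding site.

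The 100 bases before the RefSeq start are printed for the 4 members with the highest means among those in the table with no annotated exon there, with any match to these motifs in capitals, to show how varied the upstream sequence of highly read members is.
Mrpl42 (chr10:95501950-95502049, minus strand): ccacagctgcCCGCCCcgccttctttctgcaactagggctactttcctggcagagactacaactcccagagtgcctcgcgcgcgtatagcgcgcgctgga
Mrps36 (chr13:100744660-100744759, minus strand): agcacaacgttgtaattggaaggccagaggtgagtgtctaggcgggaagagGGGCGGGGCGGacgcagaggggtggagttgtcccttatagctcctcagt
Mrpl58 (chr11:115403652-115403751, plus strand): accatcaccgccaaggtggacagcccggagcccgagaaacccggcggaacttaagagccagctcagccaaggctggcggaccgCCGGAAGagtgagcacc
Mrpl2 (chr17:46646129-46646228, plus strand): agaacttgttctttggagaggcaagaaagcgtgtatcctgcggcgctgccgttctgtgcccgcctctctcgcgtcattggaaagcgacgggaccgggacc
Mrpl42 and Mrps36 hold the SP1 letters, Mrpl58 the ETS core, and Mrpl2 none of the 5 motifs in these bases.

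Among the other parts of mitochondrial translation, the remaining ribosomal components were read as fully as the members, and 3 lists of lower level were not. All 5 mitochondrial ribosomal proteins with other symbols were read in both libraries. Dap3, a GTP-binding protein of the small subunit, was at 199 and 124 TPM, Chchd1 at 230 and 152 TPM and Aurkaip1 at 244 and 77.3 TPM. Ptcd3, another small-subunit protein, was at 4.32 and 72.4 TPM, and Gadd45gip1, of the large subunit, at 14.6 and 13.6 TPM. Mitochondrial 16S ribosomal RNA (mt-Rnr2) was at 7744 and 8233 TPM and 12S (mt-Rnr1) at 1165 and 1388 TPM, far above the protein genes.

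Of 15 translation factors found in the tables, 9 were read in both libraries, 5 in 1 and 1 in neither, with medians of 42.01 and 14.9 TPM. Tufm, the elongation factor that brings tRNA to the ribosome, was highest, at 230 and 261 TPM, followed by Slirp, which stabilizes mitochondrial mRNA, at 82.2 and 234 TPM, and Gfm1, the translocation factor, at 90.6 and 84.8 TPM. The initiation factor Mtif3 was at 42.5 and 0.0511 TPM. Of 25 assembly factors, 15 were read in both, 7 in 1 and 3 in neither, with medians of 17.03 and 19.02 TPM. The highest were Mrm3 (25.3 and 78.2 TPM), Mpv17l2 (15.1 and 65.1 TPM) and Trub2 (36.1 and 40.3 TPM). Of 22 genes that load mitochondrial tRNA, 13 were read in both, 7 in 1 and 2 in neither, with medians of 11.4 and 19.2 TPM. Kars, which also serves the cytosol, was highest at 255 and 93.0 TPM, then Lars2 at 111 and 106 TPM and Gatb at 78.7 and 53.3 TPM. In each of these 3 lists several genes were read in 1 library alone, against 2 of the 78 members, whose medians of 77.6 and 122 TPM were higher.

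The family was also set beside genes of the cytosolic ribosome and of oxidative phosphorylation. The 84 cytosolic ribosomal protein genes, relatives with like symbols included, had medians of 605 and 342 TPM in replicates 1 and 2, and a median log2 ratio of -0.80, with 73 of 82 lower in replicate 2. The 84 nuclear subunit genes of oxidative phosphorylation had medians of 970 and 1270 TPM and a median log2 ratio of 0.28, with 64 of 82 higher in replicate 2. The median of the mitochondrial ribosomal protein genes was 0.23, and it was 0.09 by scaled counts and 0.13 with DESeq2 size factors. Of 77 members 43 (55.8%) were higher in replicate 2, near the 50.3% of protein-coding genes that passed the same filter. Summed markers of heart muscle were also higher in replicate 2, at 50550 and 76680 TPM for 8 genes with a median log2 ratio of 0.48. Those of fibroblasts (5 genes, 1010 and 878 TPM, median -0.28) and of endothelium (5 genes, 502 and 380 TPM, median -0.42) were lower. Within these lists some markers went the other way, namely Nppa (-0.40) of heart muscle, Postn (0.20) and Pdgfra (0.48) of fibroblasts and Cdh5 (0.64) of endothelium. Red cell markers summed to 5657 and 5564 TPM and macrophage markers to 93.0 and 88.2 TPM. The part of these cell types in the ratios of the family was not tested. The family's SD per library of 1.07 was wider than the 0.50 of the oxidative phosphorylation genes and the 0.67 of the cytosolic ones. Both other sets lie at higher levels, where libraries are closer, so these SDs are not at matched level.

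**Figure D5:**
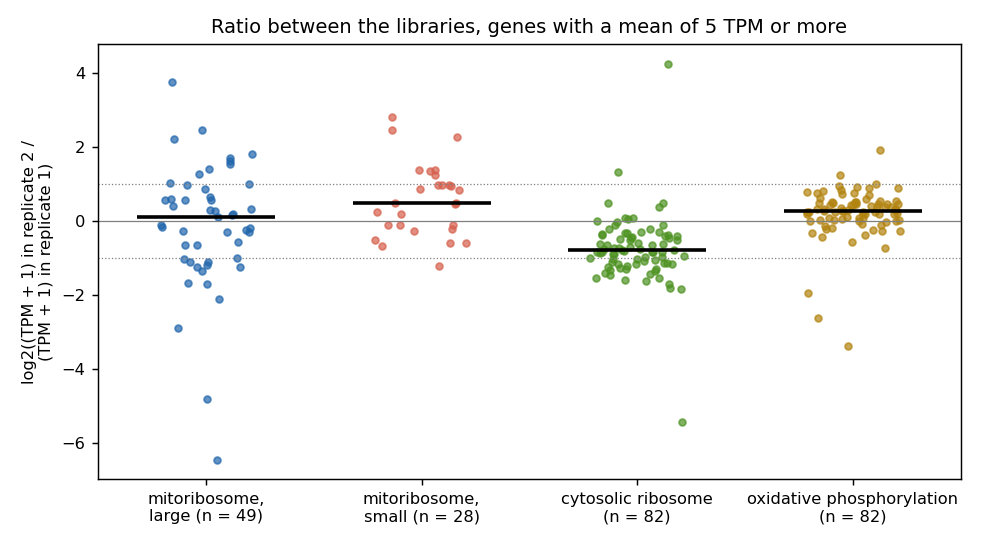
Log2 ratio of TPM + 1 in replicate 2 to replicate 1 for genes whose mean was at least 5 TPM, 1 point per gene, with the median of each set as a black bar and dotted lines at a 2-fold difference. The medians are 0.10 for the large and 0.49 for the small mitochondrial subunit, -0.80 for the cytosolic ribosome and 0.28 for oxidative phosphorylation.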

How the data were processed

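Gene and transcript tables of 2 libraries were used, 1 of each per library. Per the file headers, they hold expected counts (estimated reads, not whole), TPM with the bounds of an interval, and for transcripts the percent of the gene's TPM. The authors' TPM is scaled to 1000000 over all rows, spike-ins included. Text notes deposited with the tables name mm10 and GENCODE M4. The level of that interval, the aligner and the quantifier: not given in the sources used here.

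TPM was rescaled over the 43346 mouse genes. GENCODE M21 supplied names, types and positions. By identifier 42462 genes matched, and 143 more, Mrpl33 among them, through their transcripts. The 741 others held 0.0296% and 0.0506% of TPM. Pseudogenes with Mrpl or Mrps symbols were not taken. A gene was called read at 1 TPM, ratios used a pseudocount of 1 and a mean of 5 TPM or more, and depth was 40648662 and 33173354 counts. Leading transcripts were compared in genes with 10 counts or more in each library. Pseudogene copies were aligned with minimap2 2.31-r1302. Counting intervals of ratios are exact at 95%. Since there is 1 group, no test was made. Alternatives changed the unit, the pseudocount, the thresholds, the subunit of Mrps18a, Mrps30 and Mrps36, the scaling (DESeq2 1.42.0 size factors or edgeR 4.0.16 TMM factors, after rounding the expected counts), and left out each replicate or some members. The ratio step was run on simulated counts with counting error only, so that check does not bear on the wider spread between these libraries.

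The members and lists were chosen with earlier results of these data known. Named are the 8 highest and 4 lowest members of each subunit by mean TPM, members under 3 counts in exactly 1 library, the 6 highest, 6 lowest and 6 most equal ratios, members whose place differs from their symbol with their relatives, Mrpl12, Mrpl58 and Mrps12, ribosomal proteins with other symbols and the 3 highest of each related list. Other genes named, among them the stalk proteins, neighbours and transcript examples, were chosen after their values were seen. R 4.3.3 and Python 3.11.15 were used, with scipy 1.17.1.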

Additional observations from a re-analysis of the deposited data

How the results depend on the processing

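No paired analysis was possible because there is 1 group. The share of the members in the libraries was 0.657% by expected counts in place of 0.998% by TPM, which divides by length, and ranged from 0.931% to 1.06% over single libraries. At 95% identity, 13 members had a pseudogene copy in place of 21. The difference between subunit medians stayed below 0 under every alternative run, from -0.59 without replicate 1 to -0.08 without replicate 2, so its size rests on 1 library. Between 74 and 76 members were read in both libraries at thresholds of 5 TPM, 0.1 TPM and 3 counts, and 77 in replicate 1 alone. The share of members over 2-fold apart lay between 37.7% and 42.9% against 40.3%, and the median ratio between 0.09 and 0.29. DESeq2's size factors moved all log2 ratios by -0.11 and edgeR's TMM factors by -0.07, which left 16 members over 2-fold higher and 15 lower in replicate 2. Of the named members' ratios, 37 were repeated under 5 alternatives, and none over 2-fold changed direction. None of the 5 settles how reads are divided between Mrpl23 and its pseudogene, so its direction stays uncertain. Alternatives without Mrpl33, and without the 9 members that share windows, were chosen after seeing the data. Low counts limit the precision of Mrps30 and of the low values of Mrpl43 and Mrpl1, and the shared sequence limits Mrpl23.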
